A study of Homo sapiens with 30 samples.

Results

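Untreated MOLT-16 cells, a line grown from T-cell acute lymphoblastic leukaemia (T-ALL), were compared with 4 other T-ALL lines, PEER, TALL-1, Loucy and PER-117. The members were the 3 MOLT-16 libraries from cells given the vehicle dimethyl sulfoxide (DMSO), of 30 libraries in all, chosen by their labels and not by any measured value. They were set against the 12 DMSO libraries of the other lines, 3 per line, with each line weighted equally. DMSO was given for 48 h. The other 15 libraries came from the same 5 lines given decitabine, a cytidine analogue that depletes DNA methyltransferases, at 1 µM for 48 h. No genotype or engineered allele is given for any line, and all lines were grown in RPMI-1640 medium with fetal calf serum. Each line stands for 1 leukaemia, so MOLT-16 and the leukaemia it came from cannot be told apart. Nothing in the labels states that replicates came from separate cultures, so the spread between libraries of a group may be technical. A p-value here reflects that spread as estimated over all 10 groups, not that of the 3 MOLT-16 libraries alone.

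T-ALL arises from thymocytes, the T-cell precursors of the thymus, which assemble their T-cell receptor genes stage by stage. The leukaemic cells keep many features of the stage at which they stopped, so lines differ in which receptor chain, surface marker or driver transcription factor they express. Drivers such as TAL1, the TLX and NKX2 homeobox factors and the HOXA genes mark separate groups of the disease, and NOTCH1 signalling is active in many of them.

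The libraries were made from the 3′ ends of transcripts, and values are counts of reads on the gene's own strand. The MOLT-16 DMSO libraries held 3.95 M to 4.89 M gene reads, and those of the other lines 4.47 M to 15.4 M. Levels are given as CPM, reads scaled to library sizes adjusted by the TMM method, and levels of different genes are not compared, because reads near the 3′ end do not measure a level per length. In each of 3 lines 1 library also held reads of other lines. In MOLT-16 replicate 3, all 22 genes that the decitabine libraries show in PEER alone were detected, at a median of 20.7% of the PEER level. The 16 genes restricted to MOLT-16 stood there at a median of 66.2% of their mean in replicates 1 and 2. Replicates 1 and 2 define that mean, so their own medians of 93.2% and 107% lie near it by construction. These genes also had to reach 10 CPM in replicates 1 and 2 but not in replicate 3, which favours a lower value there. Replicate 3 also held the 9 genes restricted to TALL-1 at 6.09%. PEER replicate 2 held the TALL-1 genes at a median of 12.7% and the MOLT-16 genes at 7.17%, TALL-1 replicate 3 held the PEER genes at 15.7%, and in the other 12 DMSO libraries such medians were at most 1.34%. These 3 are called the mixed libraries. A second fit left them out, and its values are given beside many of the counts and genes that it moves. All 8 T-cell markers reached 1 CPM in MOLT-16, with a summed level of 1947 to 2673 CPM. The 6 erythroid markers summed to 0.511 to 1.19 CPM, the 7 epithelial and stromal markers to 0.298 to 2.13 CPM and the 5 B-cell markers to 5.36 to 10.9 CPM. Of the 6 myeloid markers, MPO, CD14, CSF1R and CSF3R had 0 reads and the sum was 3.87 to 6.18 CPM. The 5 NK-cell markers summed to 29.8 to 83.1 CPM, of which GNLY gave 27.7 to 80.7 CPM, with KLRD1 and KLRF1 each at or below 1.79 CPM and NCR1 and FCGR3A at 0 reads. Fewer cells of a type cannot be told apart from less RNA per cell in such bulk samples.

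Untreated MOLT-16 differed from the mean of the other 4 lines in a large share of its genes. Higher in MOLT-16 were T-cell receptor alpha and other receptor signalling genes, MHC class II genes, genes of NK and cytotoxic cells, glycolytic enzymes and the driver factor TAL1. Lower were most genes of cholesterol synthesis, many replication genes, DNMT1, CDK6 and RB1, and the X-linked genes TCEAL8, BEX4 and ARMCX5. The replication genes called lower fell from 22 of 40 to 9 without MOLT-16 replicate 2, and DNMT1 too was lowest in that library. Under decitabine 11 replication genes were higher and 4 lower. Of 15081 genes tested with edgeR's quasi-likelihood test, 50.5% were called, 4303 (28.5%) of them higher and 3320 (22%) lower, at a Benjamini-Hochberg adjusted p under 0.05. At least 2-fold differences were called for 2374 genes (15.7%) higher and 1322 (8.77%) lower. The log2 difference is that between MOLT-16 and the mean of the 4 lines on the log scale, and its median over all genes was 0.01. Because 1 silent line pulls this mean down, a gene called higher need not be highest in MOLT-16. Of the 4303, 2542 (59.1%) had a MOLT-16 mean above that of every other line, and of the 3320 lower genes 2291 (69%) had one below every line. All 3 MOLT-16 libraries stood above all 12 others in 915 genes called higher (6.07%) and below them in 575 called lower (3.81%). Without MOLT-16 replicate 3 these 2 counts were 1723 and 1520, and without all 3 mixed libraries 1805 (11.5%) and 1611 (10.2%). When each line was taken as 1 sample, with the reads of its 3 libraries summed, edgeR called 0 genes in either direction, and 382 higher and 180 lower genes had an unadjusted p under 0.05.

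The second fit, without the 3 mixed libraries, tested 15741 genes and called 50.8% of them, 4467 (28.4%) higher and 3525 (22.4%) lower. Of the 4303 genes first called higher, 3979 (92.5%) were called higher again, and of the 3320 lower genes 2911 (87.7%) were called lower again. The 3 genes that turned from higher to lower were GIMAP4, SLIT1 and DNTT, the enzyme that adds untemplated bases to receptor joints. DNTT stood at 2.55 and 7.45 CPM in MOLT-16 replicates 1 and 2 and at 114 CPM in the mixed replicate 3, with 552 CPM in PEER and 255 CPM in TALL-1. Its log2 difference was 1.51 with the mixed libraries and -1.62 without them. GIMAP4, a GTPase of lymphocytes, went from 3.17 to -3.17, and SLIT1, a guidance ligand, from 1.31 to -1.82, and both had their highest MOLT-16 level in replicate 3 and their highest line mean in PEER.

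The 15 genes named as higher were protein-coding, reached 10 CPM in MOLT-16, were called in both fits with no overlap of libraries, and stood furthest above the nearest other line. Their log2 differences ran from 6.89 to 9.76 with a median of 8.72, and each of the 15 averaged under 1 CPM in at least 1 other line. STC2 encodes stanniocalcin 2, a secreted glycoprotein, on chromosome 5 (173314713 to 173329503, GRCh38). It stood at 223, 148 and 90.6 CPM in the 3 MOLT-16 libraries, at means of 3.17 CPM in PEER and 1.23 CPM in TALL-1, and at 0 reads in Loucy and PER-117. Even the lowest MOLT-16 library, the mixed one, lay above the highest other library, at 8.59 CPM. That library was the mixed PEER replicate 2. From the pooled reads of 3 libraries, MOLT-16 stood at 49.4 times the PEER level (95% counting interval 37.3 to 66.8), and the log2 difference from PEER went from 5.63 to 8.64 without the mixed libraries. The log2 difference from the mean of the lines was 9.76 (SE 0.45, adjusted p = 6.23e-15), and 10.87 without the mixed libraries. Where lines have 0 reads the fitted log2 value moves with the prior count that edgeR adds, so the ratio of pooled reads to the nearest line is printed for several such genes. JAKMIP1, a protein that binds Janus kinases and microtubules, is on chromosome 4 (6026203 to 6200591). It stood at 85.0, 87.3 and 65.2 CPM in MOLT-16, and no other library passed the 3.63 CPM of the mixed PEER library. Its ratio to PEER was 58.2 (38.2 to 93.3), and the log2 difference from PEER went from 5.85 to 8.24 without the mixed libraries.

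COTL1, an actin-binding protein, stood at 848, 892 and 1118 CPM in MOLT-16. Its means were 29.8 CPM in PEER, 13.3 CPM in TALL-1, 0.363 CPM in Loucy, with 0.0707 CPM in PER-117. From pooled reads MOLT-16 stood at 33.9 times the PEER level (30.9 to 37.3), and the log2 difference from PEER went from 5.01 to 6.37 without the mixed libraries. The mixed MOLT-16 library was the highest here, and the groups did not overlap, as the naming rule required. DYSF, the membrane repair protein dysferlin, stood at 38.8, 72.1 and 23 CPM in MOLT-16 and below 1 CPM on average in each other line. CRYGD, a crystallin of the eye lens, stood at 15.6, 27.7 and 14.1 CPM. Its 12 other libraries held 1 read in all, in TALL-1, for a ratio of 263 with an interval of 46.7 to 10441. IL10RA, the ligand-binding chain of the interleukin-10 receptor, stood at 43.2, 81.0 and 28.4 CPM against at most 2.86 CPM in any other library. The remaining names were KLRC1, GNLY and HLA-DRB1, described with their lists, and SP140, ADD2, DCLK3, MS4A6A, FERMT1 and ST8SIA1. SP140 is a nuclear body protein of leukocytes, FERMT1 an activator of integrins and ST8SIA1 the synthase of ganglioside GD3. These 6 stood at MOLT-16 means of 18.5 to 48.3 CPM, with every other library at or below 4.2 CPM.

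The 15 genes named as lower were protein-coding and were called in both fits with no overlap of libraries. They reached 10 CPM in the lowest other line and stood furthest below it. Their log2 differences ran from -4.18 to -2.76 with the mixed libraries and from -10.78 to -3.78 without them. TCEAL8, an X-linked gene of the transcription elongation factor A-like family (103252995 to 103255203), stood at 1.79 and 2.38 CPM in MOLT-16 replicates 1 and 2 and at 18.1 CPM in the mixed replicate 3. Line means ran from 73.6 CPM in PEER to 103 CPM in PER-117, and their lowest library held 68.0 CPM. The log2 difference of TCEAL8 was -3.47 (SE 0.36, adjusted p = 4.03e-09) with and -5.39 without the mixed libraries. B4GALT2, a Golgi galactosyltransferase on chromosome 1 (43978943 to 43991170), stood at 1.28, 0.596 and 15.1 CPM in MOLT-16 and at means of 47.2 to 127 CPM elsewhere. Its log2 difference was -3.74 (SE 0.41, adjusted p = 1.29e-08) with and -6.50 without the mixed libraries. In both genes MOLT-16 replicate 3 stood apart from replicates 1 and 2 and between them and the other lines.

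CNTLN, a centrosome protein, had 0 reads in MOLT-16 replicates 1 and 2 and 3.62 CPM in replicate 3, with means of 11 to 64.8 CPM in the other lines. GADD45A, a gene induced by cell stress, differed least between MOLT-16 libraries, at 1.53, 1.19 and 2.77 CPM, with means of 10.6 CPM in PEER, 19.5 CPM in TALL-1, 51.5 CPM in Loucy, with 42.3 CPM in PER-117. Its log2 difference was -3.75 (SE 0.34, adjusted p = 3.04e-10) with and -4.08 without the mixed libraries. The other lower names were BEX4, ARMCX5, TRIP6, VPS37B, TEX19, ARRB1, TTYH3, SERPINH1, C11orf96, NRIP1 and RAB37. ARRB1 encodes beta-arrestin 1, SERPINH1 a collagen chaperone and NRIP1 a corepressor of nuclear receptors. TEX19, a gene of germ cells and placenta, stood at 2.81, 1.49 and 11.5 CPM in MOLT-16 and at means of 34.3 to 183 CPM elsewhere. TTYH3, a membrane protein of the tweety family, stood at 13.8, 7.74 and 35.4 CPM in MOLT-16 against means of 113 to 175 CPM.

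**Figure D1:**
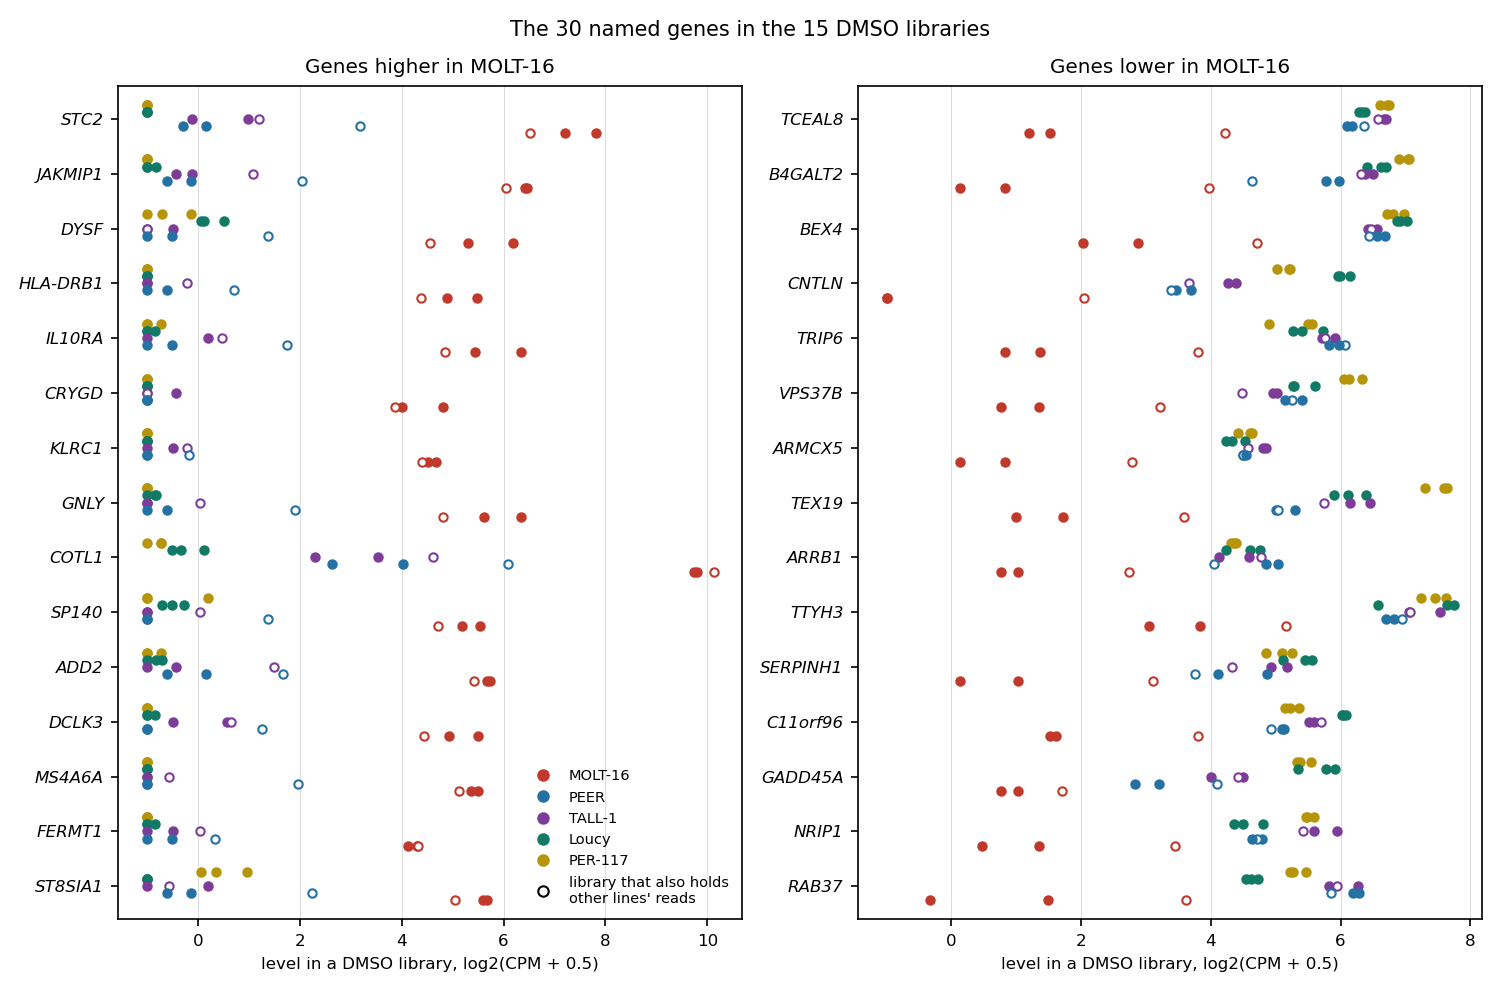
Levels of the 15 genes named as higher and the 15 named as lower in each of the 15 DMSO libraries, as log2(CPM + 0.5), 1 point per library and 1 colour per line, with the 3 mixed libraries as open circles. By the naming rule the 3 MOLT-16 points lie on 1 side of all others in every row. In the lower genes the open MOLT-16 point lies nearest the other lines, as for TCEAL8 at 18.1 CPM against 1.79 and 2.38 CPM.

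Promoter sequences are shown for the first 2 genes of each direction with a RefSeq entry, because these genes were nearly silent on 1 side of the comparison and the CG pairs in a promoter are what DNA methylation acts on. Each covers 250 bases before and 50 after the RefSeq start on GRCh38.p14, 5′ to 3′ on the gene's strand, with CG pairs in capitals. STC2 lies at chr5:173328365-173328664 on the minus strand, JAKMIP1 at chr4:6194570-6194869 on the minus strand, TCEAL8 at chrX:103255106-103255405 on the minus strand and B4GALT2 at chr1:43979687-43979986 on the plus strand.
STC2: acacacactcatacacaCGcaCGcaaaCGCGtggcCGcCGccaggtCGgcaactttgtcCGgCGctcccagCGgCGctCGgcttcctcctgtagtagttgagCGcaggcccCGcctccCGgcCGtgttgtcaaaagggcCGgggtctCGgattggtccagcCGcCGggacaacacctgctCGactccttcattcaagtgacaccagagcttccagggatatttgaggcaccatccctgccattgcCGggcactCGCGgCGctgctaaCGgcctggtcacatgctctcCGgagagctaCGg
JAKMIP1: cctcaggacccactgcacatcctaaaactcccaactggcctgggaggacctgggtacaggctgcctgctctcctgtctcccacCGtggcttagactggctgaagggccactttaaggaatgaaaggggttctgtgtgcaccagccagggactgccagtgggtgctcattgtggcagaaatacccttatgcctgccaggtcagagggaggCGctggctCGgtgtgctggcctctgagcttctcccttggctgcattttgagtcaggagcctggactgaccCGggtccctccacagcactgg
TCEAL8: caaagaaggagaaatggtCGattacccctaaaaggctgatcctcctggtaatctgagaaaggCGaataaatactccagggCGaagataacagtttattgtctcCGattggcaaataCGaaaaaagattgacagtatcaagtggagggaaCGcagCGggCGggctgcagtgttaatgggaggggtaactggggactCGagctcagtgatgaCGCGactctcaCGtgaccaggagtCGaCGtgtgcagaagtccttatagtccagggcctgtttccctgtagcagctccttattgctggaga
B4GALT2: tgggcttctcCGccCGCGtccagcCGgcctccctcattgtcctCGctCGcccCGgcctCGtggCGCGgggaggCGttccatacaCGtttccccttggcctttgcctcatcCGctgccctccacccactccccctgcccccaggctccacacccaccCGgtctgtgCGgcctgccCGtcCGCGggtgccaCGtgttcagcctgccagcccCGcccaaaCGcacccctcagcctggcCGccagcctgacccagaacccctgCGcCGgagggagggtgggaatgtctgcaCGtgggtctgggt
STC2 held 28 CG pairs, and 26.2% of the 35116 promoters in the table held at least as many. JAKMIP1 held 4 (75.5% held at least as many), TCEAL8 held 14 (50.3%) and B4GALT2 held 25 (32%), against a median of 14 over all promoters. The motif TATAAA, searched on both strands, was not found in these 4 windows, and 11.5% of all promoters in the table hold it. Of the 30 named genes 24 had an entry: the 14 higher genes held 1 to 35 CG pairs (median 9.5), and the 10 lower genes held 14 to 42 (median 22.5). The naming rule asked lower genes, but not higher genes, to be expressed in every other line, so the 2 sets differ by selection and their medians are not compared. The STC2, JAKMIP1 and B4GALT2 windows lie inside the gene spans given above, so starts further upstream are not covered. These counts describe the reference sequence, and methylation was not measured in the data used here.

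The decitabine group means come from other libraries than the DMSO group means, and the 3 mixed libraries are all DMSO libraries. The same contrast was therefore made between the decitabine groups. Both contrasts came from 1 fit of all 30 libraries, with a shared filter, scaling and estimate of spread, so the 2 tests are not separate. Called higher in MOLT-16 were 3868 genes (25.6%) and lower 2887 (19.1%). Of the 4303 genes higher in DMSO, 3022 (70.2%) were also higher under decitabine and 17 were lower, and these 3022 made up 78.1% of the decitabine calls. Of the 3320 lower genes, 1918 (57.8%) were also lower and 12 were higher. All 30 named genes were called in the same direction under decitabine. STC2 stood at 92.4 ± 33.1 CPM (SD, n = 3) in decitabine-treated MOLT-16, with a log2 difference of 6.56. TCEAL8 stood at 2.84 ± 3.23 CPM with a log2 difference of -5.22, and B4GALT2 at 1.18 ± 0.197 CPM with one of -5.93. The difference between the contrasts was itself tested with edgeR's quasi-likelihood test. Among the named genes it passed for DYSF alone, at 2.98 (SE 0.67, adjusted p = 0.0211). For HLA-DRB1, CRYGD, DCLK3, JAKMIP1 and FERMT1 this test could not decide. PER-117 had 0 reads of each in both treatments, and their SEs ran from 121 to 5539. STC2 had a difference of 3.21 with a wider error (SE 0.96, adjusted p = 0.0851). DYSF stood at 45.8 ± 4.25 CPM in decitabine-treated MOLT-16, near its DMSO mean of 44.6 ± 25 CPM. Its mean was 5.79 CPM in decitabine-treated Loucy and 14.7 CPM in PER-117, against 0.691 and 0.176 CPM in DMSO. Over all genes 226 (1.5%) passed this test.

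**Figure D2:**
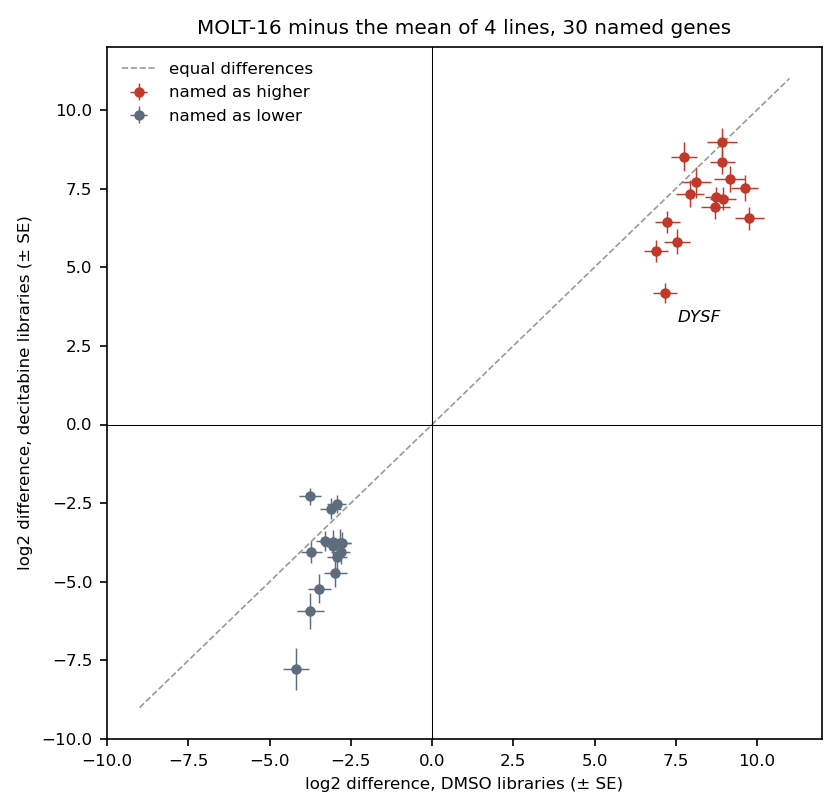
Log2 differences of MOLT-16 from the mean of the other 4 lines for the 30 named genes, in DMSO libraries on the x axis and decitabine libraries on the y axis, with bars of ± 1 SE and a dashed line of equal differences. All 15 genes named as higher lie above 0 and all 15 named as lower lie below 0 on both axes, and DYSF, the 1 named gene whose difference between the contrasts passed the test, lies below the line at 7.17 against 4.19.

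Counts of called members are given for 31 gene lists beside the share of all genes tested, 28.5% higher and 22% lower. Every symbol on them was matched. A member with few reads in the other lines can pass the filter on low counts through MOLT-16 alone. This favours calls as higher and limits the comparison with the shares of all genes. Where 5 or fewer members of a list lie on 1 side, single members decide the share, and no list was tested as a whole.

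**Figure D3:**
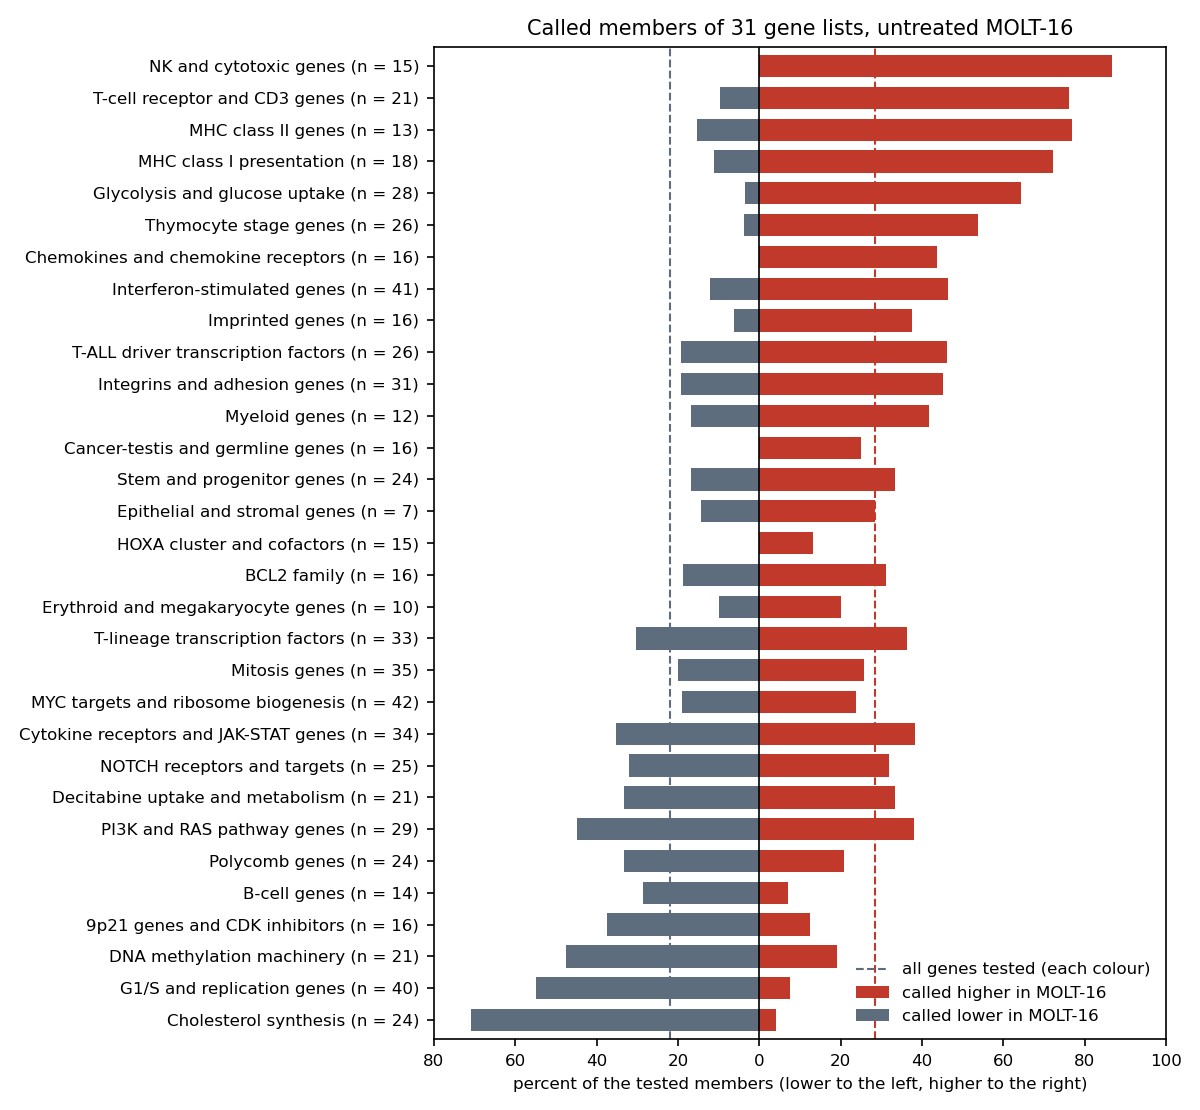
Percent of the tested members of each of 31 gene lists that were called higher (right) or lower (left) in untreated MOLT-16 against the mean of the 4 other lines, with dashed lines at 28.5% and 22%, the shares over all genes. NK and cytotoxic genes reach furthest to the right, with 13 of 15 higher, and cholesterol synthesis furthest to the left, with 17 of 24 lower.

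T-cell receptor and signalling genes were mostly higher in MOLT-16: 16 of 21 tested were called higher and 2 lower, with a median log2 difference of 1.27, and the second fit gave the same counts. Without MOLT-16 replicate 2, 1 was lower. Under decitabine 17 were higher and 3 lower. The constant region of the receptor alpha chain, TRAC, stood at 7638, 11124 and 4988 CPM in MOLT-16. The other lines averaged 166 CPM (PEER), 378 CPM (TALL-1), 382 CPM (Loucy) and 1.29 CPM (PER-117), and the groups did not overlap. TRAC had a log2 difference of 6.73 (SE 0.44, adjusted p = 3.02e-13), and 7.62 without the mixed libraries. TRDC, the constant region of the delta chain, which is encoded within the alpha locus, went the other way. It stood at 0.255 and 0.596 CPM in MOLT-16 replicates 1 and 2 and at 21.7 CPM in replicate 3, with 94.7 CPM in PEER, 8.59 CPM in TALL-1, 433 CPM in Loucy, with 146 CPM in PER-117. This was a log2 difference of -3.39 (SE 0.59, adjusted p = 2.29e-05) with and -7.01 without the mixed libraries.

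The gamma chain gene TRGC2 stood at 309, 358 and 225 CPM in MOLT-16 and at means of 1.14 to 40.2 CPM elsewhere. TRGC2 and the beta chain genes TRBC1 and TRBC2 have near-identical copies, so their reads may have been split or dropped in counting, and their values are uncertain. PTPRC, the phosphatase CD45, stood at 659, 825 and 508 CPM, above its 434 CPM in Loucy and the 76.1 to 134 CPM of the other 3 lines, with a log2 difference of 2.11 (SE 0.12, adjusted p = 1.73e-14), and 2.35 without the mixed libraries. THEMIS, needed for thymocyte selection, stood at 71.0, 39.6 and 49.2 CPM against 30.8 CPM in TALL-1 and 5.94 CPM or less in the other lines. The signalling genes CD247, LCP2 and LAT were also above every other library, by log2 differences of 1.27 to 1.73. CD3G, a signalling chain of the receptor complex, was not called, at 361, 311 and 500 CPM with a log2 difference of 0.19. PTCRA, the surrogate alpha chain of early thymocytes, was not called either. It had 0 reads in MOLT-16 replicates 1 and 2 and 93.8 CPM in TALL-1.

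Among thymocyte stage genes 14 of 26 were called higher and 1 lower, but without the mixed libraries 11 were higher and 3 lower, and without MOLT-16 replicate 3 alone 9 were higher and 3 lower. Calls for KIT, CD1D, CD1B and S1PR1 ended without the mixed libraries. KIT, a progenitor receptor, stood at 0, 0.596 and 11.3 CPM in MOLT-16 with 46.0 CPM in PEER. CD5, CD6, CD27 and IL2RA were above all other libraries. IL2RA, with 25 reads in MOLT-16, did not pass against Loucy alone (edgeR's quasi-likelihood test, adjusted p = 0.232). CD5, a negative regulator of receptor signalling, stood at 164, 235 and 140 CPM in MOLT-16, 106 CPM in PEER and 0.251 CPM in PER-117, with a log2 difference of 3.60 (SE 0.18, adjusted p = 9.69e-16). CD27, a costimulatory receptor, stood at 15.8, 35.4 and 19.2 CPM against at most 5.01 CPM on average elsewhere. CD2, an adhesion receptor of T cells, was called higher at 83.0, 92.9 and 79.5 CPM, yet TALL-1 held 155 CPM. The coreceptor genes CD4 and CD8A and the progenitor marker CD34 were not called, and in MOLT-16 replicates 1 and 2 each stood at or below 0.255 CPM. Without the mixed libraries CD8A was called lower, by a log2 difference of -2.84.

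T-ALL driver factors were called higher in 12 of 26 and lower in 5 of 26. TAL1, a basic helix-loop-helix factor, was the only one above all other libraries. It stood at 38.8, 38.1 and 44.6 CPM in MOLT-16, 3.41 CPM in PEER, 2.63 CPM in TALL-1, 0.0219 CPM in Loucy and 0 in PER-117. TAL1 had a log2 difference of 7.22 (SE 0.43, adjusted p = 1.58e-13), and 3.12 under decitabine. MEF2C, a MADS-box factor, was called higher at 32.7, 24.4 and 16.2 CPM, though Loucy held 155 CPM, while the other lines held 1.73 CPM or less. ERG, an ETS factor of stem cells, was lower at 0.766, 0.893 and 23 CPM, with 99.8 CPM in PEER, 6.21 CPM in TALL-1, 87.2 CPM in Loucy, with 70.2 CPM in PER-117. The log2 difference of ERG was -2.33 (SE 0.50, adjusted p = 0.000287) with and -5.23 without the mixed libraries. MYB, a progenitor factor, stood below all other libraries at 187, 237 and 283 CPM against means of 398 to 588 CPM. NKX2-5, a homeobox factor, was called higher with the mixed libraries only: it stood at 0, 0.298 and 41.1 CPM in MOLT-16 and 175 CPM in PEER, and its log2 difference went from 4.25 to -1.10. HOXA9 had 0 reads in MOLT-16 and 88.3 CPM in Loucy, and was not called against the mean of the lines.

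Of 33 T-lineage transcription factors, 12 were called higher and 10 lower, and 13 and 11 in the second fit. TOX2, an HMG-box factor, stood at 88.9, 173 and 45.8 CPM in MOLT-16 against 0.761 to 14.3 CPM elsewhere, with a log2 difference of 4.48 (SE 0.39, adjusted p = 1.31e-10), and 5.07 without the mixed libraries. TCF7, a factor of early T-cell commitment, was called higher at 681, 952 and 455 CPM, with 691 CPM in TALL-1 and 1.65 CPM in Loucy. RUNX3, SATB1 and TCF3 were below all other libraries. RUNX3, a factor of CD8 and cytotoxic cells, stood at 42.9, 45.6 and 72.5 CPM in MOLT-16 against means of 186 to 225 CPM elsewhere, with a log2 difference of -1.96 (SE 0.16, adjusted p = 5.04e-11). The NOTCH list was split, with 8 of 25 higher and 8 lower, and 7 and 8 in the second fit. DTX3L, a ubiquitin ligase, and JAG1, a NOTCH ligand, were above all other libraries. DTX3L stood at 216, 241 and 189 CPM against means of 83 to 150 CPM, with a log2 difference of 1.08, and JAG1 at 1.02, 0.596 and 0.426 CPM against at most 0.179 CPM in any other library. NOTCH1 itself was lower, at 17.4, 11.3 and 29.8 CPM against 20.5 CPM in Loucy and 43.7 to 141 CPM in the other lines, with a log2 difference of -1.53 (SE 0.21, adjusted p = 4.56e-07). The NOTCH targets HES1 and HES4 were also called lower. HES1, a repressor, stood at 0.511 and 0.893 CPM in replicates 1 and 2 and 44.3 CPM in replicate 3, against 17.6 to 227 CPM elsewhere, and its log2 difference went from -1.93 to -6.43 without the mixed libraries. HES4 stood at 0, 0.298 and 2.98 CPM against 4.90 to 135 CPM, and its log2 difference went from -4.39 to -7.54.

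Genes of NK and cytotoxic cells were higher in 13 of 15 tested and lower in 0, with a median log2 difference of 2.50, or 2.26 with lines at 0 reads set to a floor of 3 reads. The second fit and the decitabine libraries also gave 13 higher and 0 lower, 5 of the 13 had no overlap of libraries, and 26 symbols were on the list. Members with few reads in the other lines could be tested through MOLT-16 alone, which favours calls as higher. GNLY, the pore-forming protein granulysin, stood at 48.8, 80.7 and 27.7 CPM in MOLT-16, against 1.13 CPM in PEER, 0.179 CPM in TALL-1, 0.0422 CPM in Loucy and 0 in PER-117. The ratio of pooled reads to PEER was 45.2 (28.3 to 76.8), and the log2 difference from PEER went from 5.54 to 9.27 without the mixed libraries, the PEER reads being mostly in its mixed library at 3.24 CPM. KLRC1, the inhibitory receptor NKG2A, stood at 25, 22.3 and 20.7 CPM with at most 0.382 CPM in any other library, 108 times the level in TALL-1 (36.4 to 525). CTSW, a protease of cytotoxic granules, stood at 103, 122 and 68.2 CPM against at most 8.80 CPM on average elsewhere. HCST, an adaptor of activating receptors, stood at 229, 393 and 151 CPM against 5.77 to 96.5 CPM. PRF1, perforin, was called higher at 49.8, 72.1 and 20.9 CPM, and NKG7 at 113, 127 and 88.5 CPM, though Loucy held 28.5 CPM of PRF1 and PER-117 held 81.1 CPM of NKG7. GZMA, granzyme A, was called higher at 14.6, 13.1 and 14.5 CPM, below the 75 CPM of PER-117. TYROBP, an adaptor of NK and myeloid cells, was not called and had 0 reads in MOLT-16 replicates 1 and 2. The summed NK-cell markers other than GNLY, itself a member of this list, reached 2.13 to 3.32 CPM in MOLT-16, 2.86 to 6.87 CPM in TALL-1, 0.191 to 0.62 CPM in PEER and at most 0.546 CPM in Loucy and PER-117. Defining markers NCR1 and FCGR3A had 0 reads in MOLT-16, and the part of other cells in these levels was not tested.

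MHC class II genes were higher in 10 of 13 tested and lower in 2, with the same counts in the second fit, and 7 of the 10 were above all other libraries. The list held 16 symbols. Members silent in the other lines could be tested through MOLT-16 alone, so their calls as higher were close to fixed by the filter. The median log2 difference of the 13 was 7, or 3.92 with lines at 0 reads set to the floor. HLA-DRA, the shared alpha chain of HLA-DR, stood at 23, 28.9 and 17.5 CPM in MOLT-16, at 1.02 CPM in PEER and at 0 reads in TALL-1, Loucy and PER-117. HLA-DRB1 stood at 29.1, 44.4 and 20.5 CPM, with 70.4 times the PEER level in pooled reads (33.8 to 176), and a log2 difference from PEER of 6.14 with and 8.45 without the mixed libraries. HLA-DRB5 and HLA-DPB1 had 0 reads in all 12 libraries of the other lines. HLA-DRB1 and HLA-DRB5 are near copies and highly polymorphic, so the split of their reads is uncertain. CIITA, the transactivator that switches class II genes on, stood at 9.71, 10.1 and 7.25 CPM, and at 0.127 CPM in PEER, 0.0228 CPM in Loucy and 0 reads in TALL-1 and PER-117. CD74, the invariant chain, stood at 17.6, 35.4 and 15.1 CPM with at most 0.827 CPM on average elsewhere. The promoter-binding subunits RFXANK and RFXAP were the 2 members called lower, by log2 differences of -0.61 and -0.37, and RFX5 was not called, but was called higher without the mixed libraries (0.44). B-cell genes, many of which accompany class II expression, were higher in 1 of 14 and lower in 4.

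MHC class I presentation genes were higher in 13 of 18 and lower in 2. HLA-B stood at 1072, 1408 and 807 CPM in MOLT-16 against 137 to 635 CPM elsewhere, and B2M, the light chain, at 6006, 6448 and 4480 CPM against 2054 to 3139 CPM. Both were above all other libraries, with log2 differences of 1.70 (SE 0.14, adjusted p = 2.68e-11) for HLA-B and 1.12 (SE 0.15, adjusted p = 7.18e-07) for B2M. HLA-C was lower, at 11.7, 13.7 and 88.9 CPM against 86.7 to 359 CPM, with a log2 difference of -2.42 (SE 0.34, adjusted p = 8.46e-07) with and -3.99 without the mixed libraries. HLA alleles differ from the reference sequence, so these levels are uncertain.

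**Figure D4:**
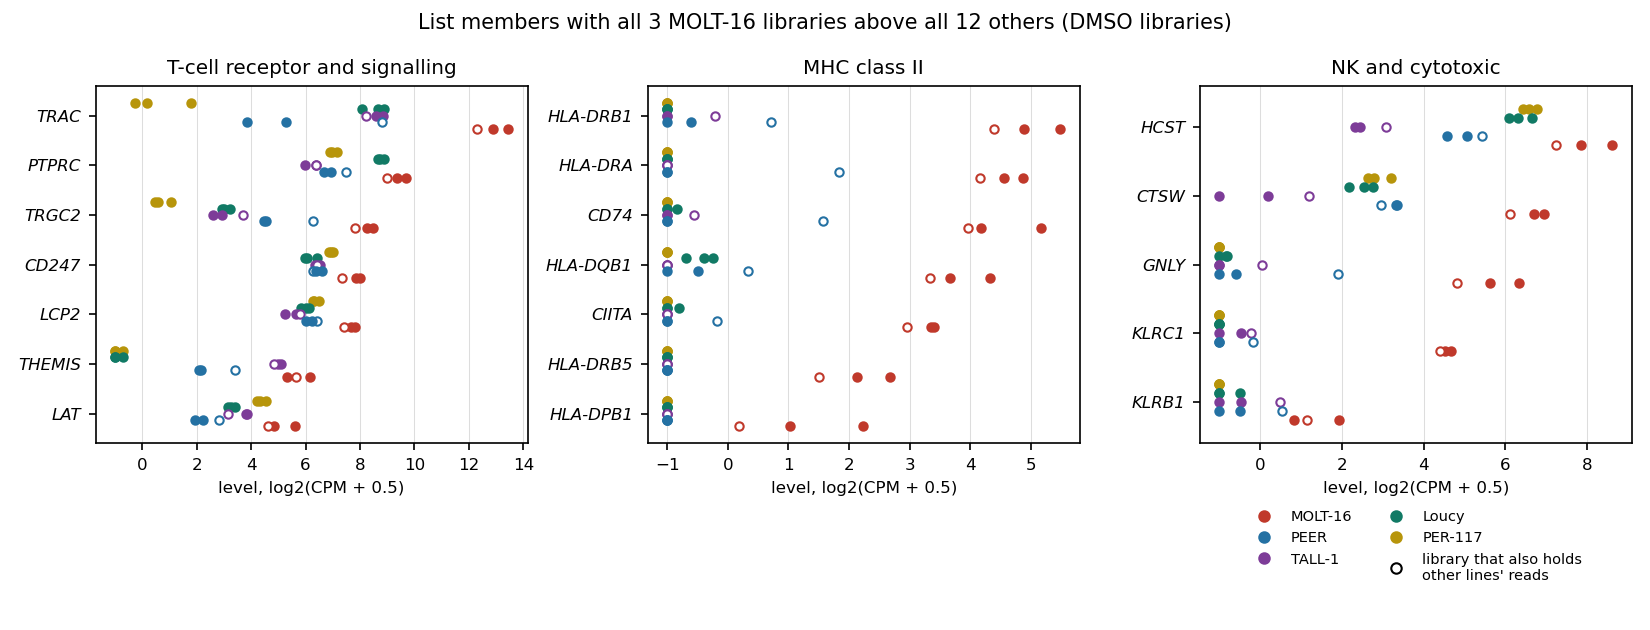
Levels in the 15 DMSO libraries, as log2(CPM + 0.5), of the T-cell receptor, MHC class II and NK and cytotoxic list members with all 3 MOLT-16 libraries above all 12 others (1 member is not shown), with mixed libraries as open circles. TRAC in MOLT-16 lies between 4988 and 11124 CPM, and the class II genes lie at or near 0 reads in most libraries of the other lines.

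Interferon-stimulated genes were higher in 19 of 41 and lower in 5, with a median log2 difference of 0.40. Lower members numbered 9 without the mixed libraries or without MOLT-16 replicate 3, and 3 without MOLT-16 replicate 2. OASL, GBP2, OAS2, IFITM3, GBP1, SP110 and TRIM22 were above all other libraries. Against the nearest line alone 2 of these did not pass edgeR's quasi-likelihood test: TRIM22 against TALL-1 (adjusted p = 0.351) and GBP1 against PEER (adjusted p = 0.0992). In pooled reads TRIM22 stood at 1.20 times the TALL-1 level (95% counting interval 0.999 to 1.43). OAS2, a sensor of double-stranded RNA, stood at 40.6, 63.1 and 27.7 CPM against 0.460 to 8.79 CPM elsewhere, with a log2 difference of 3.85 (SE 0.23, adjusted p = 3.80e-14). ISG15, IFI6, MX1 and IFIT1 were not called, and EIF2AK2, the RNA-activated kinase, was lower by a log2 difference of -0.91. Chemokine genes were higher in 7 of 16 and lower in 0, with a median of -0.47 that became 0.53 with lines at 0 reads set to the floor. CCL5, made by activated T and NK cells, stood at 21.7, 39.0 and 8.95 CPM, with 1.12 CPM in PEER and at most 0.198 CPM on average in the other lines. The chemokines XCL1 and XCL2, near copies whose reads may be split, and the receptor CXCR3 were also above all other libraries. XCL1 did not pass against PEER alone (edgeR's quasi-likelihood test, adjusted p = 0.151). Myeloid genes were higher in 5 of 12 and lower in 2, and the lower count was 1 in the second fit and 1 without TALL-1 replicate 3. CEBPE, a factor of granulocytes, stood at 23.5, 46.5 and 30.7 CPM against 0.251 to 13.6 CPM elsewhere, while MPO and SPI1 had 0 reads in MOLT-16.

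Cytokine receptor and JAK-STAT genes were higher in 13 of 34 and lower in 12. STAT4, which carries interleukin-12 signals, stood at 33.5, 33.1 and 22.6 CPM in MOLT-16 and at 0.869 to 2.05 CPM elsewhere, with a log2 difference of 4.24 (SE 0.31, adjusted p = 4.29e-12), and 4.98 without the mixed libraries. IL2RG, the common gamma chain, stood at 492, 704 and 397 CPM against 107 to 251 CPM. IFNGR2, a chain of the interferon-gamma receptor, stood below all other libraries at 8.94, 8.64 and 23.5 CPM against 41.5 to 207 CPM, with a log2 difference of -2.48 (SE 0.19, adjusted p = 7.32e-12), and -3.13 without the mixed libraries. IL7R, the interleukin-7 receptor, was not called, at 6.64, 7.15 and 12.8 CPM. Of PI3K and RAS pathway genes 11 of 29 were higher and 13 lower, and the lower count was 5 without MOLT-16 replicate 1 and 8 without replicate 2. PIK3R1, the regulatory subunit of PI3K, stood at 375, 379 and 183 CPM against 74.3 to 119 CPM. NF1, a brake on RAS, stood at 16.1, 12.2 and 21.5 CPM against 34.0 to 46.1 CPM, below all other libraries.

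Replication genes were more often lower than higher in MOLT-16. Of 40 G1/S and replication genes 3 were higher and 22 lower, with a median log2 difference of -0.35, and the second fit gave 3 and 23. Without MOLT-16 replicate 2, 9 were lower, without replicate 1, 1 was higher, and in decitabine libraries 11 were higher and 4 lower. FEN1, a flap endonuclease of replication, stood at 182, 77.4 and 285 CPM in MOLT-16 against 272 to 504 CPM. POLA1 and RFC2, a polymerase and a clamp loader subunit, were below all other libraries, by log2 differences of -0.83 and -0.78. Mitosis genes were higher in 9 of 35 and lower in 7, and 1 was lower without MOLT-16 replicate 2. CDK6, a kinase of the G1 phase, stood at 96.3, 78.0 and 194 CPM against 387 to 862 CPM, with a log2 difference of -2.35 (SE 0.20, adjusted p = 1.31e-10). RB1, the retinoblastoma protein that CDK6 acts on, stood at 33.2, 12.5 and 88.5 CPM against no less than 97.5 CPM in any other library, with a log2 difference of -1.73 (SE 0.31, adjusted p = 3.98e-05) with and -2.62 without the mixed libraries. Both were below all other libraries. CDKN2A, an inhibitor of CDK6, stood at 0, 2.38 and 9.17 CPM against 2.11 CPM in PER-117 and 13.7 to 72.2 CPM in the other lines, and was called lower at -2.22 with and -3.88 without the mixed libraries. Its neighbour MTAP was not called, at 53.4, 37.8 and 66.3 CPM, and was called lower without the mixed libraries (-0.39). CDKN1C, another inhibitor, was higher at 11.5, 12.2 and 2.77 CPM, with a log2 difference of 3.20 (SE 0.40, adjusted p = 1.41e-07), and 4.46 without the mixed libraries.

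FAS, the death receptor, was above all other libraries and stood at 30.6, 24.4 and 20.0 CPM against 0.726 to 7.09 CPM, with a log2 difference of 2.84 (SE 0.19, adjusted p = 4.42e-13). GADD45A, described above, was below all other libraries. CDKN1A, the inhibitor p21, was lower at 1.02, 0.893 and 2.13 CPM against 1.56 to 13.2 CPM elsewhere, while its decitabine mean in MOLT-16 was 29.3 CPM. In the BCL2 family 5 of 16 were higher and 3 lower. BCL2A1, an anti-apoptotic member, stood above all other libraries at 6.90, 5.96 and 7.04 CPM, and BCL2L1 was lower at 18.6, 15.8 and 24.3 CPM.

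Genes of DNA methylation, the process that decitabine acts on, were higher in 4 of 21 and lower in 10. DNMT1, the maintenance methyltransferase, stood at 251, 95.6 and 521 CPM in MOLT-16 against means of 614 to 877 CPM elsewhere. The log2 difference of DNMT1 was -1.34 (SE 0.27, adjusted p = 0.000118) with and -2.05 without the mixed libraries. MOLT-16 replicate 2 was the lowest of the 3, as for FEN1. HELLS and UHRF2, chromatin partners of methylation, were below all other libraries, and TET2, which oxidises methylcytosine, was called higher with a log2 difference of 2.17, although PEER at 19.5 CPM and PER-117 at 24.6 CPM exceeded the 16.3, 7.45 and 17.1 CPM of MOLT-16. Of genes for decitabine uptake and metabolism 7 of 21 were higher and 7 lower, 3 lower without MOLT-16 replicate 2. SAMHD1, a nucleotide triphosphatase, stood at 53.4, 73.3 and 25.6 CPM against 4.13 CPM in PER-117 and at most 0.445 CPM in the other lines, with a log2 difference of 6.64 (SE 0.34, adjusted p = 2.78e-15), and 8.03 without the mixed libraries. SLC29A1, a nucleoside transporter, was lower at 41.1, 24.4 and 93.8 CPM against 57.2 to 258 CPM. DCK, the kinase that activates decitabine, was not called, at 26.3, 9.23 and 32 CPM, and was called lower without the mixed libraries (-0.68). Among 24 Polycomb genes 5 were higher and 8 lower. PCGF2, a subunit of the first Polycomb complex, stood below all other libraries at 4.60, 11.3 and 20.3 CPM against 34.5 to 81.9 CPM.

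Glycolysis genes were higher in 18 of 28 and lower in 1, with a median log2 difference of 0.57, the second fit gave 18 and 1, and decitabine libraries 14 and 2. Members above all other libraries were ALDOC, GPI, SLC2A3, PFKP, ALDOA, PKM and TPI1. TPI1 did not pass against PEER alone (edgeR's quasi-likelihood test, adjusted p = 0.0701, and 0.295 without the mixed libraries). ALDOC, aldolase C, stood at 45.2, 54.8 and 30.5 CPM against 0.852 to 2.4 CPM, with a log2 difference of 4.90 (SE 0.22, adjusted p = 2.62e-16). GPI, which interconverts the hexose phosphates, stood at 1346, 1317 and 911 CPM against 199 to 500 CPM. The 1 lower member was PFKM, the muscle form of phosphofructokinase, at 1.79, 0.298 and 9.38 CPM. LDHA and the transporter SLC2A1 were not called. Cholesterol synthesis genes went the other way, with 17 of 24 lower and 1 higher, a median of -0.66, 19 lower in the second fit and 19 lower under decitabine. SREBF1, a lipid synthesis factor, stood below all other libraries at 18.6, 8.34 and 35.2 CPM against 47.9 to 88.6 CPM, with a log2 difference of -1.51 (SE 0.25, adjusted p = 9.37e-06), and -2.14 without the mixed libraries. IDI1, an isomerase of the pathway, was lower at 16.9, 6.55 and 42.6 CPM against 34.5 to 105 CPM, with a log2 difference of -1.65 with and -2.48 without the mixed libraries. PMVK was the 1 higher member, with a log2 difference of 0.51. Its call ended without MOLT-16 replicate 2, which left 0 higher members.

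The remaining lists are given by their counts. Integrin and adhesion genes were higher in 14 of 31 and lower in 6, with 9 higher when TALL-1 was left out of the mean. ITGB7, a gut-homing integrin chain, stood at 55.7, 81.0 and 45.0 CPM in MOLT-16 against 1.38 to 22.2 CPM. Stem and progenitor genes were higher in 8 of 24 and lower in 4, and the lower count was 1 without TALL-1 replicate 3. HOXA cluster genes and cofactors were higher in 2 of 15 and lower in 0, yet their median log2 difference was -0.92, and -2.89 without the mixed libraries. Under decitabine 2 were higher and 4 lower. In DMSO 3 were lower without PEER in the mean and 4 without TALL-1. Imprinted genes were higher in 6 of 16 and lower in 1, and cancer-testis genes higher in 4 of 16 and lower in 0. Ribosome biogenesis and related growth genes were higher in 10 of 42 and lower in 8, and the lower count was 5 without MOLT-16 replicate 1 or 2 and 14 without replicate 3. Erythroid genes were higher in 2 of 10 and lower in 1, and epithelial and stromal genes higher in 2 of 7 and lower in 1. Among the 9p21 genes and CDK inhibitors, 2 of 16 were higher and 6 lower, with 1 higher without MOLT-16 replicate 2. The second fit gave higher and lower counts of 10 and 10 for mitosis, 8 and 14 for ribosome biogenesis, 7 and 2 for stem, 8 and 2 for imprinted and 5 and 4 for BCL2 family genes. Counts of 0 to 2 in the B-cell, HOXA, erythroid, epithelial, chemokine and imprinted lists moved by 1 gene when single libraries were left out.

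The lower genes TCEAL8, BEX4 and ARMCX5 lie in 1 stretch of the X chromosome, from ARMCX5 to TCEAL1 (102599168 to 103630953, GRCh38, GENCODE 29), which was examined after these values were seen. The stretch holds the BEX and TCEAL families of small proteins. Of its 14 protein-coding genes tested, 7 were called lower and 2 higher, and 10 lower and 2 higher without the mixed libraries. Over all genes tested 22% were called lower and 28.5% higher. The stretch was picked for genes called lower and is bounded by genes called lower, which raises its count. All 14 stood at or below 10 CPM in MOLT-16 replicates 1 and 2. However, GPRASP1, GPRASP2, BHLHB9, BEX1, TCEAL5, BEX2 and TCEAL3 also averaged at or below 10 CPM in every other line. BEX3 stood at 2.81, 8.04 and 145 CPM in MOLT-16, at 500 CPM in PEER, 44.3 CPM in TALL-1 and 344 CPM in Loucy, and at 0.793 CPM in PER-117. MOLT-16 replicate 3 thus stood with the expressing lines and replicates 1 and 2 near PER-117. The log2 difference of BEX3 was 0.08 with and -2.84 without the mixed libraries. BEX1 and BEX2, the 2 higher calls, had 0 reads in Loucy and PER-117, and stood at 0.766, 1.79 and 17.9 CPM and at 1.53, 0.298 and 6.40 CPM in MOLT-16.

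**Figure D5:**
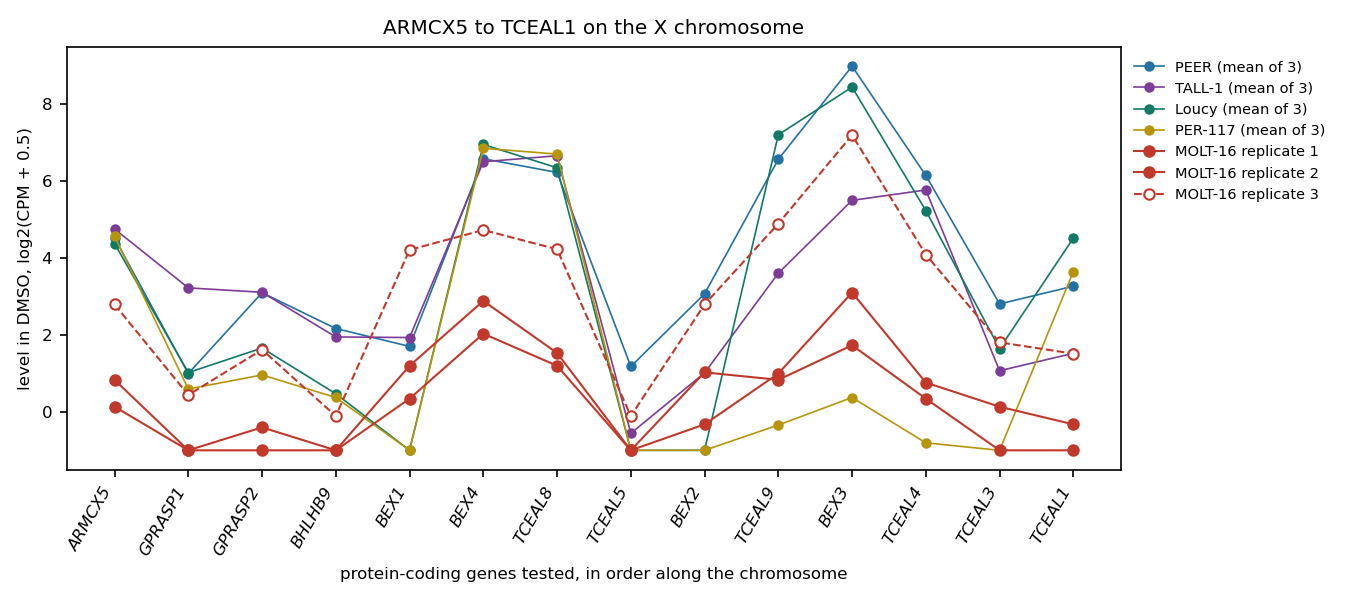
Levels, as log2(CPM + 0.5), of the 14 protein-coding genes tested from ARMCX5 to TCEAL1 in chromosomal order, with each of the 3 MOLT-16 DMSO libraries and the mean of 3 DMSO libraries of each other line. MOLT-16 replicates 1 and 2 stay at or below 10 CPM in all 14 genes, and MOLT-16 replicate 3 rises to 145 CPM at BEX3. At GPRASP1, GPRASP2, BHLHB9, BEX1, TCEAL5, BEX2 and TCEAL3 the means of all other lines are at or below 10 CPM too. The PER-117 mean is above 10 CPM only at ARMCX5, BEX4, TCEAL8 and TCEAL1.

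Set against each line alone, MOLT-16 had 3395 higher (22.5%) and 3565 lower genes (23.6%) than PEER, and 3632 (24.1%) and 3631 (24.1%) than TALL-1. Against Loucy the counts were 4441 (29.4%) and 4811 (31.9%), and against PER-117 4567 (30.3%) and 4132 (27.4%). The 4 comparisons share the MOLT-16 libraries, and Loucy and PER-117 were sequenced to 9.93 M to 15.4 M reads, PEER and TALL-1 to 4.47 M to 6.41 M, so the part of depth in these counts was not tested. CD2 shows how a call against the mean can hide a line: MOLT-16 stood far above Loucy at 0.660 CPM and PER-117 at 0.216 CPM, and below TALL-1 at 155 CPM.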

How the data were processed

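RNA from 5 lines, 30 libraries in all, was sequenced from transcript 3′ ends. The submitters' processing notes name STAR 2.4.2a, GRCh38 (hg38) and DESeq2, and no source used here gives the annotation release. The authors deposited raw counts per gene for each strand option, and the column for the reads' own strand was used. The 60554 gene identifiers were named from GENCODE 29 (56996 matched). edgeR 4.0.16 (R 4.3.3) fitted 10 group means over 30 libraries (TMM, filterByExpr with a minimum count of 10, quasi-likelihood test, Benjamini-Hochberg adjustment, 20 residual degrees of freedom). The second fit left out the 3 mixed libraries. Standard errors were derived from the fitted difference and its F value, and counting intervals (95%) cover counting error only. Named genes were protein-coding, called in both fits, with no overlap of DMSO libraries and at least 10 CPM on the higher side, 15 each way by distance to the nearest line in log2(CPM + 0.5). Any list member could be named. The members and lists were chosen with earlier results of these data known. Replicate numbers follow the sample titles; for PEER DMSO the titles and the deposited names exchange replicates 2 and 3, so PEER replicate 2 here carries number 3 in the deposited names. Tested on simulated data (15081 genes), this contrast recovered 100%, 92%, 100% and 100% of 50 genes each at log2 changes of -2, -1, 1 and 2, with 4 false calls. Only 200 genes were changed there, while 50.5% of genes were called here, so these rates may not hold for the present data. Alternatives included DESeq2 1.42.0, other scaling, no filter, DMSO libraries alone, unstranded counts, each line as 1 sample, and leaving out each library or line. Some genes and 1 list are not reported here.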

Additional observations from a re-analysis of the deposited data

Results flagged for a closer look

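DYSF, the dysferlin gene, differed between the DMSO and the decitabine contrast of MOLT-16 against the other lines, by 2.98 on the log2 scale (SE 0.67, edgeR's quasi-likelihood test of the interaction, adjusted p = 0.0211). Its level in MOLT-16 was 44.6 ± 25 CPM in DMSO and 45.8 ± 4.25 CPM under decitabine (SD, n = 3 each).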

How the results depend on the processing

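Of 810 recomputed values for the named genes, 780 kept their direction and call, 30 lost the call, all with each line as 1 sample, and 0 reversed. With each line as 1 sample the counts of higher, lower, wholly above and wholly below genes were 0, 0, 0 and 0, and every list count was 0. Wholly above and below counts became 1805 and 1611 without the 3 mixed libraries, and the below count 1037 without PEER, 935 without TALL-1 and 955 without PER-117 in the mean. Leaving out 1 library at a time gave 3654 to 4510 higher genes and 2431 to 3574 lower, 936 to 1723 wholly above and 595 to 1520 wholly below, both highest values coming without MOLT-16 replicate 3. DESeq2 gave 4528 higher and 3217 lower genes. The cause of these moves was not tested, except that leaving out libraries makes non-overlap easier to reach. With the replicate number as a block, 4260 genes were higher and 3275 lower. The labels do not say that numbers pair libraries, and 3 of 30 same-numbered pairs correlated above 0.1 (r from -0.14 to 0.27). MOLT-16, at 3.95 M to 4.89 M reads, had the fewest reads among the DMSO groups on average, which limits genes with few reads.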

Other observations

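ASNS, PSAT1, CHAC1 and DDIT3, chosen after their values were seen, were also called higher in untreated MOLT-16, and no list of such genes was counted. ASNS, asparagine synthetase, stood at 196, 210 and 40.7 CPM in MOLT-16, 15.3 CPM in PEER, 8.24 CPM in TALL-1, 1.68 CPM in Loucy, with 8.32 CPM in PER-117. The log2 difference of ASNS was 4.51 (SE 0.29, edgeR's quasi-likelihood test, adjusted p = 3.2e-13), and 5.00 without the mixed libraries. PSAT1, an enzyme of serine synthesis, stood at 673, 434 and 293 CPM, and CHAC1, which degrades glutathione, at 128, 124 and 23.7 CPM. DDIT3, a stress-induced factor, stood at 106, 129 and 19.4 CPM, with a log2 difference of 2.11 (SE 0.31, adjusted p = 2.06e-06). In these 4 genes MOLT-16 replicate 3 was the lowest of the 3. SLC7A11, a cystine transporter, was not called, at 103, 86.1 and 24.9 CPM, but was called higher without the mixed libraries (0.79).

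Genes on chromosome 13 had a median log2 difference of -0.39 over 279 tested genes, of which 122 (43.7%) were called lower against 22% of all genes tested. The median was -0.48 without the mixed libraries and -0.36 in the decitabine libraries. Set against single lines it was -0.09 for PEER, -0.74 for TALL-1, -0.37 for Loucy and -0.65 for PER-117. Chromosome 13 had the lowest median of the chromosomes compared. Chromosome 21 stood at -0.28 with 31.9% called lower, and chromosome 14 at -0.14 with 31.5%. RB1, described above as lower, lies on chromosome 13, and whether its level goes with that of the chromosome was not tested.

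In MOLT-16 replicates 1 and 2, 26 genes had 0 reads while every other line averaged at least 1 CPM. They were picked by the same values that the contrast uses, so the call of 25 of them as lower was nearly fixed. They include CNTLN, SLC40A1, the iron exporter, and SKAP2, an adaptor protein. SLC40A1 averaged 8.86 to 24.4 CPM and SKAP2 1.63 to 70.1 CPM in the other lines. Neighbouring genes made runs of at most 2.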
